A study of Mus musculus with 5 samples.

Results

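The step from 6 h to 12 h of Fanchinoline exposure was examined in MutuDC cells, an immortalised mouse dendritic cell line, by comparing RNA-seq gene counts of the 12 h library with those of the 6 h library. The genes compared were those with at least 10 CPM (counts scaled to library size) in either library, which gave 8608 of the 53700 genes in the count table. The series followed 1 line through 5 libraries: cells given Fanchinoline (spelled as in the labels) for 2, 6, 12 or 24 h, and a vehicle control taken as 0 h. The labels name no genetic change in any library and call the control cells vehicle-treated, whereas the series design text calls them untreated. That text also speaks of triplicates, but the table holds 1 library per time point, and whether replicates were pooled is not stated. No dose is given in the labels. Both cultures compared here had received the compound, so time with Fanchinoline and time in culture cannot be told apart.

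MutuDC lines were derived from tumours of transgenic mice in which the promoter of the dendritic cell gene CD11c drives a viral oncogene, and they keep many features of cDC1, the conventional dendritic cells that cross-present antigen. Cells short of amino acids, or stressed in their endoplasmic reticulum, phosphorylate the initiation factor eIF2, which lowers general protein synthesis and favours translation of the transcription factor ATF4. ATF4 induces amino acid transporters, enzymes that make amino acids, aminoacyl-tRNA synthetases and its own feedback regulators. Hypoxia-inducible factors (HIF) are transcription factors that are hydroxylated and degraded when oxygen and iron are available. When stable, they induce glycolytic enzymes, lactate export and genes of mitochondrial turnover.

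Total counts were 37999354 at 12 h and 42854511 at 6 h, and lay between 33568526 and 42854511 over the 5 libraries. A level of 10 CPM stood for 377 counts at 12 h and 425 counts at 6 h. Of 15 markers of cDC1, 14 reached 10 CPM in all 5 libraries, and Itgae, the integrin CD103, stayed between 1.48 and 2.47 CPM. The summed level of these 15 markers was 9043 CPM at 12 h and 10184 CPM at 6 h. Irf8 made up a large part of this sum, with 3663 CPM at 12 h and 4317 CPM at 6 h. Some markers went the other way, such as Clec9a with 222 CPM at 12 h and 203 CPM at 6 h. Of 12 macrophage markers, 6 reached 10 CPM in all libraries, while Mertk and Mrc1 had no count in any; their summed level was 489 CPM at 12 h and 585 CPM at 6 h. All 6 B cell markers, a set that leaves out the IgM heavy chain gene Ighm, were under 1 CPM in every library. In bulk RNA, fewer cells of a type and less RNA per cell cannot be told apart.

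Most genes had similar levels at 12 h and 6 h. The log2 ratio of the 12 h library over the 6 h library had a median of -0.01 and an SD across genes of 0.193. With 1 library per time point no test across samples was possible. A gene was therefore called higher or lower when its ratio reached 1.5-fold (a log2 ratio of at least 0.585 in size) and its 95% exact Clopper-Pearson interval, which covers counting error only, excluded a ratio of 1. The interval alone excluded 1 for 2338 higher (27.2%) and 2530 lower genes (29.4%). By the rule of size 29 genes (0.337%) were higher and 75 (0.871%) were lower at 12 h than at 6 h. At 2-fold, 5 genes (0.0581%) were higher and 18 (0.209%) were lower.

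The other consecutive steps share libraries with this one and are given only for their size. The same 1.5-fold rule called 934 of 8671 genes (10.8%) at 2 h over vehicle, 618 higher (7.13%) and 316 lower (3.64%). It called 93 of 8600 genes (1.08%) at 6 h over 2 h and 63 of 8596 (0.733%) at 24 h over 12 h. The lower calls outnumbered the higher calls at 12 h over 6 h, with 75 against 29. At 6 h over 2 h the balance was the other way, with 65 higher (0.756%) and 28 lower (0.326%), and at 24 h over 12 h it was 52 higher (0.605%) and 11 lower (0.128%).

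Of the genes compared, 8367 reached 10 CPM in both libraries and held 22 of the higher and 54 of the lower calls. Another 95 reached it only at 12 h (7 called higher) and 146 only at 6 h (21 called lower), and the calls among these were favoured by the filter. Mgarp, Ak4, P4ha2 and Arrdc4, whose values follow, passed only through the 12 h library, and Slc1a4, Cth, Chac1, Ppp1r14a and Arrdc3 only through the 6 h library. Just inside the limit, Acbd4 had 9.44 CPM at 12 h and 10.03 CPM at 6 h, and Casd1 had 9.36 CPM at 12 h and 10.03 CPM at 6 h. Just outside it, Fcgr4 had 9.99 CPM at 12 h and 8.15 CPM at 6 h, and Slf1 had 9.99 CPM at 12 h and 8.996 CPM at 6 h.

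**Figure D1:**
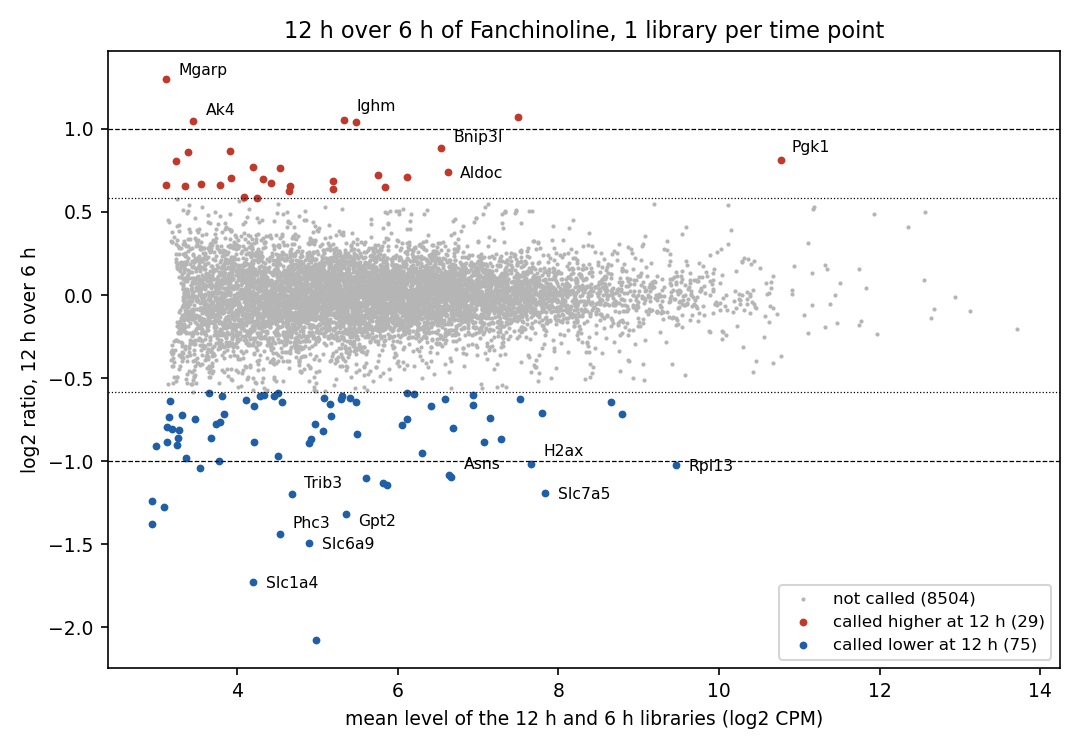
Log2 ratio of the 12 h library over the 6 h library (vertical axis) against the mean level of the 2 libraries in log2 CPM (horizontal axis), 1 point per gene. Red points are the 29 genes called higher and blue points the 75 called lower; dotted and dashed lines mark 1.5-fold and 2-fold. Lower calls reach further from 0 than higher calls, down to -2.07 against up to 1.30.

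Most gene lists shifted little. Of 45 lists with at least 3 measured members, 34 had a median log2 ratio between -0.2 and 0.2, and 17 had any member called at 1.5-fold. The lists with the lowest medians were amino acid transporters (-0.71), enzymes of serine, asparagine, proline and cysteine synthesis (-0.59) and ATF4 targets with regulators of the integrated stress response (-0.45). The highest medians were those of HIF targets other than glycolysis (0.33), glycolysis with lactate export (0.32) and cholesterol synthesis (0.30). Over all genes tested the median was -0.01.

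Together, the 3 amino acid and stress lists and the cytosolic aminoacyl-tRNA synthetases had 54 measured members, of which 53 had a ratio below 0 and 17 were called lower, 6 of them at 2-fold. Among all genes tested, 51.6% had a ratio below 0 and 0.871% were called lower. The HIF and glycolysis lists together had 40 measured members, of which 35 had a ratio above 0 and 8 were called higher, 2 of them at 2-fold. Among all genes tested, 48.4% had a ratio above 0 and 0.337% were called higher. Mgarp and Ak4, the 2 called higher at 2-fold, and P4ha2 passed the 10 CPM filter only through the 12 h library. Slc1a4, Cth and Chac1, among the 17 called lower, passed it only through the 6 h library. The filter favoured these calls, which limits the comparison with all genes.

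**Figure D2:**
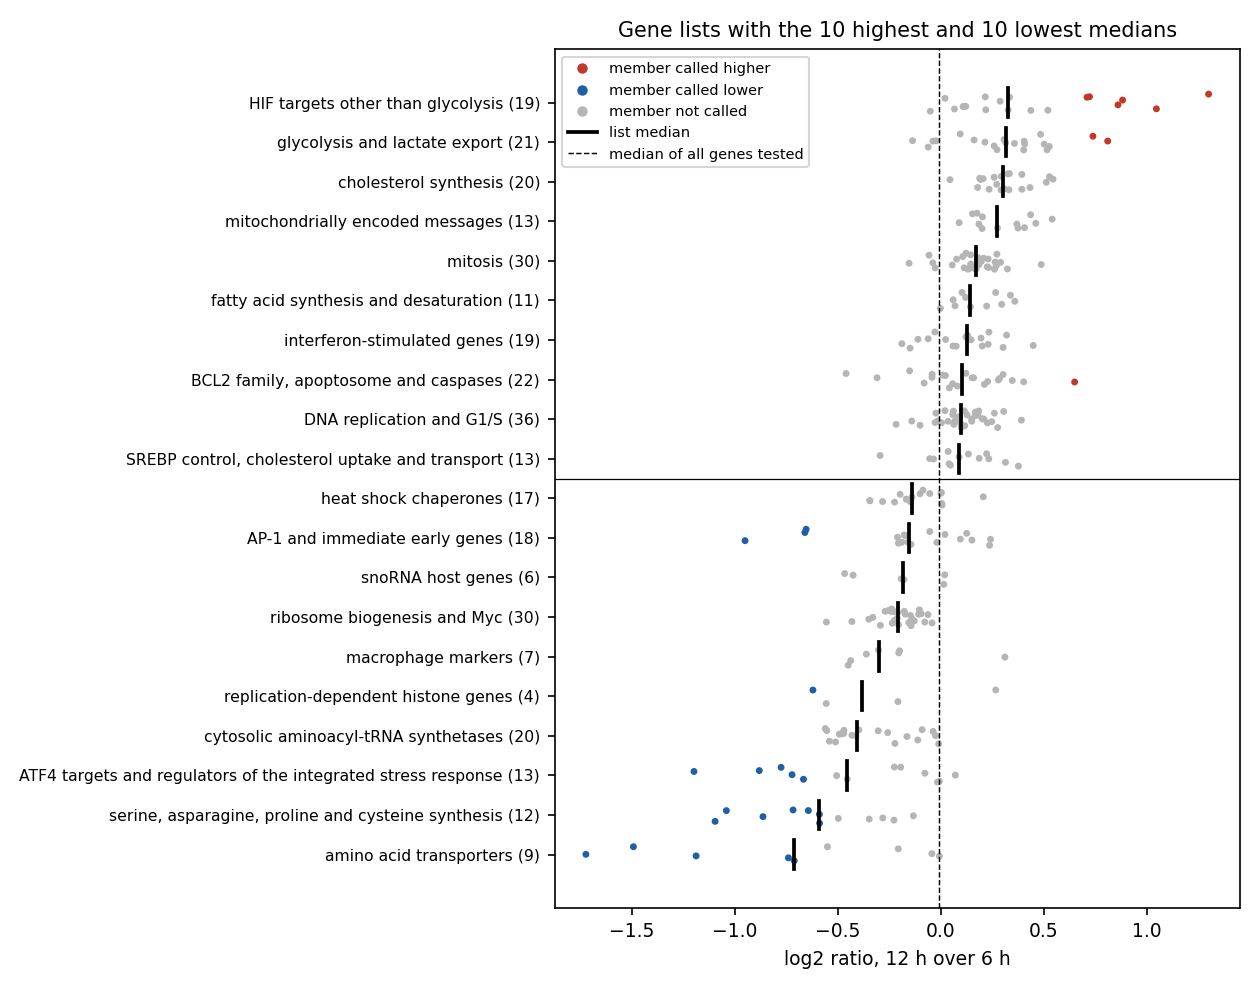
Log2 ratios of 12 h over 6 h for the members of the gene lists with the 10 highest and the 10 lowest medians, 1 point per gene and the number of measured members in brackets. Red and blue points are members called higher and lower, black bars are list medians and the dashed line is the median of all genes tested, -0.01. The transporter list sits furthest to the left, with a median of -0.71, and the HIF list furthest to the right, with 0.33.

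Of 13 amino acid transporters listed, all 9 measured had ratios below 0, and 5 were called lower at 12 h than at 6 h, 3 of them at 2-fold. Slc1a4 (ENSMUSG00000020142, GRCm38 chromosome 11, 20302180 to 20332713, minus strand), a sodium-dependent transporter of neutral amino acids, had 17.5 CPM in vehicle and 60.4, 28.1, 8.48 and 6.72 CPM at 2, 6, 12 and 24 h. Its log2 ratio of 12 h over 6 h was -1.72 (interval -1.91 to -1.55), the lowest of the genes with an ordinary symbol. Its level had thus peaked at 2 h and lay under that of vehicle at 12 h.

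Slc6a9, a glycine transporter, had 22.3 CPM in vehicle and 53.5, 43.9, 15.6 and 11.1 CPM at 2, 6, 12 and 24 h, with a log2 ratio of -1.49 (-1.63 to -1.36). Slc7a5, the large neutral amino acid transporter that exchanges glutamine for leucine, had 209 CPM in vehicle and 487, 318, 139 and 107 CPM at 2, 6, 12 and 24 h, with a log2 ratio of -1.19 (-1.24 to -1.14). Both were above vehicle at 6 h and under it at 12 h. Slc3a2, the heavy chain that carries Slc7a5 to the membrane, had 168 CPM at 12 h and 275 CPM at 6 h, a log2 ratio of -0.71. Slc7a1, a transporter of arginine and lysine, had 106 CPM at 12 h and 177 CPM at 6 h, a log2 ratio of -0.74, and unlike the others it remained above the 85.4 CPM of vehicle. The glutamine transporters Slc1a5 (-0.55) and Slc38a2 (-0.01), named after their values were seen, were not called.

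All 12 measured enzymes of the amino acid synthesis list had ratios below 0, with intervals excluding a ratio of 1, and 7 were called lower. Asns (ENSMUSG00000029752, chromosome 6, 7675169 to 7693254, minus strand), which makes asparagine from aspartate and glutamine, had 118 CPM in vehicle and 141, 138, 64.6 and 44.8 CPM at 2, 6, 12 and 24 h. Its log2 ratio of 12 h over 6 h was -1.10 (-1.17 to -1.03). Cth, which makes cysteine from cystathionine, had 7.58 CPM at 12 h and 15.7 CPM at 6 h, a log2 ratio of -1.04 (-1.25 to -0.84). These were the 2 members of the list called at 2-fold.

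Aldh18a1, the first enzyme of proline synthesis, had 111 CPM at 12 h and 202 CPM at 6 h, a log2 ratio of -0.86. Shmt2, the mitochondrial enzyme that turns serine into glycine, had 335 CPM at 12 h and 550.3 CPM at 6 h, a log2 ratio of -0.72. The 3 enzymes of serine synthesis from a glycolytic intermediate moved by close to 1.5-fold. Psat1 had a log2 ratio of -0.64, Phgdh of -0.59 and Psph of -0.59. The last 2 sat at the edge of the rule and were not called once ratios were adjusted for GC content and transcript length. Mthfd2, a mitochondrial folate enzyme named after its values were seen, had a ratio of -0.50 and was not called.

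Further aminotransferases and mitochondrial enzymes outside that list were called lower at 2-fold. Gpt2, mitochondrial alanine aminotransferase, had 32.7 CPM in vehicle and 73.4, 58.2, 23.3 and 19.4 CPM at 2, 6, 12 and 24 h, with a log2 ratio of -1.31 (-1.43 to -1.21). Bcat1, which transaminates branched-chain amino acids, had 35.3 CPM at 12 h and 77.4 CPM at 6 h, a log2 ratio of -1.13. Pck2, mitochondrial phosphoenolpyruvate carboxykinase, had 36.2 CPM at 12 h and 80.05 CPM at 6 h, a log2 ratio of -1.14. Each had been higher at 2 and 6 h than in vehicle and was lower than vehicle at 12 and 24 h.

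Among ATF4 and the regulators around it, 12 of 13 measured genes had ratios below 0 and 5 were called lower. Trib3 (ENSMUSG00000032715, chromosome 2, 152337422 to 152344032, minus strand), a pseudokinase that ATF4 induces and that restrains it, had 22.1 CPM in vehicle and 65.5, 35.6, 15.5 and 9.96 CPM at 2, 6, 12 and 24 h. The log2 ratio of 12 h over 6 h was -1.20 (-1.34 to -1.06). Chac1, which degrades glutathione, had 13.4 CPM in vehicle and 27.1, 12.4, 7.501 and 5.88 CPM at 2, 6, 12 and 24 h, with a log2 ratio of -0.72 (-0.94 to -0.52). Eif4ebp1, a repressor of cap-dependent translation, had 94.9 CPM at 12 h and 175 CPM at 6 h, a log2 ratio of -0.88.

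Atf5, a transcription factor of the mitochondrial stress response, had 23.1 CPM at 12 h and 39.7 CPM at 6 h, a log2 ratio of -0.78. Sesn2, a leucine sensor that restrains the growth kinase mTORC1, had 65.7 CPM at 12 h and 104 CPM at 6 h; its log2 ratio of -0.67 was -0.57 after adjustment for GC content and transcript length, which is short of the rule. Atf4 itself had 521 CPM in vehicle and 660.5, 502, 367 and 358 CPM at 2, 6, 12 and 24 h. Its log2 ratio of -0.45 (-0.49 to -0.42) was not called. Ddit3, the pro-apoptotic factor CHOP, had 14.3 CPM at 12 h and 20.3 CPM at 6 h, and its ratio of -0.51 was not called. Nupr1, a small stress-induced chromatin protein, was just under the filter with 3.45 CPM at 12 h and 9.94 CPM at 6 h, so it was not among the genes compared. Among the kinases that phosphorylate eIF2, Eif2ak1 (-0.08), Eif2ak4 (-0.02) and Eif2ak3 (0.07) had log2 ratios near 0. These were named after their values were seen, and Eif2ak2, another such kinase, is not given here.

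The cytosolic aminoacyl-tRNA synthetases, which load amino acids onto tRNA, shifted together without any member reaching the rule. All 20 measured synthetases had ratios below 0, 17 of them with intervals excluding a ratio of 1, and the median was -0.41. Cars had 81.4 CPM at 12 h and 120.2 CPM at 6 h, a log2 ratio of -0.56. Mars1 (-0.55), Yars (-0.54) and Sars (-0.51) had log2 ratios of similar size, and Dars, named after its values were seen, was the nearest to 0 with -0.01. Xpot, which exports tRNA from the nucleus and was also named after its values were seen, was called lower, with 96.7 CPM at 12 h, 147 CPM at 6 h and a log2 ratio of -0.60.

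The promoters of genes called lower were searched for TGATGNAA, the composite element read by ATF4 with a C/EBP partner, on both strands of RefSeq windows of GRCm38.p6 that span 250 bases before to 50 bases after an annotated start. Windows were found for 48 of the 75 genes called lower. At least 1 window held the element in 5 of these 48 genes (10.4%), which were Asns, Trib3, Slc1a4, Chac1 and Pck2. By gene, the share was 2.58% among the 6866 tested genes with a window and 4.51% among all 27025 genes with a window. By window, it was 9.09% in genes called lower, 2.11% in tested genes and 3.97% over all 32851 windows. None of the 19 genes called higher with a window held it. Among the synthetases, 5 of 13 genes with a window held it. Of the 5 genes called lower that held the element, Slc1a4 and Chac1 passed the 10 CPM filter only through the 6 h library. The filter favoured their calls. A match describes letters in a window and does not show that a factor was bound there. The 4 windows printed here, of genes whose levels are given above, run 5′ to 3′ on the strand of the gene from 250 bases before the start to 30 bases after it, with the element in capitals, read as TGATGNAA or as its reverse complement. They lie at chr6:7693180-7693459 on the minus strand (Asns), chr2:152344031-152344310 on the minus strand (Trib3), chr11:20332684-20332963 on the minus strand (Slc1a4) and chr2:119350992-119351271 on the plus strand (Chac1).
Asns: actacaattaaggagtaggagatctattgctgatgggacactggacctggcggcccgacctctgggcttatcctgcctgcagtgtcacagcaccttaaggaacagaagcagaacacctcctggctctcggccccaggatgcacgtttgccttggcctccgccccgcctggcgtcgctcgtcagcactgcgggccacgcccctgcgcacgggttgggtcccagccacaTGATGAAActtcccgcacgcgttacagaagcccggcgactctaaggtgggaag
Trib3: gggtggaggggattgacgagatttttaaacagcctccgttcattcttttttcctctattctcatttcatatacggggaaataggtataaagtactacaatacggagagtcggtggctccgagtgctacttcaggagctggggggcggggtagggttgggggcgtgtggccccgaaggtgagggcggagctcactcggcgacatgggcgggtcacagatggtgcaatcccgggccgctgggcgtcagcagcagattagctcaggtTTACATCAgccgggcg
Slc1a4: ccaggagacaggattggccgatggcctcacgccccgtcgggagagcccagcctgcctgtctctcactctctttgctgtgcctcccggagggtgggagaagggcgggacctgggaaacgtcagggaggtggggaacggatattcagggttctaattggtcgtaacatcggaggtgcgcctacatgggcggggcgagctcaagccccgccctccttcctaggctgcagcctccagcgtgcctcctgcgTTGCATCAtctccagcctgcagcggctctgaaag
Chac1: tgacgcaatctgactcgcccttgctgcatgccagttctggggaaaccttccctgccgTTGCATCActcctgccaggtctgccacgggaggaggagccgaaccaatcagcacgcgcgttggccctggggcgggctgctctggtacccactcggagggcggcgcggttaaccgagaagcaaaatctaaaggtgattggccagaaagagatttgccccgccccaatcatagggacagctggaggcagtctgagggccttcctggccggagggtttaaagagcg

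**Figure D3:**
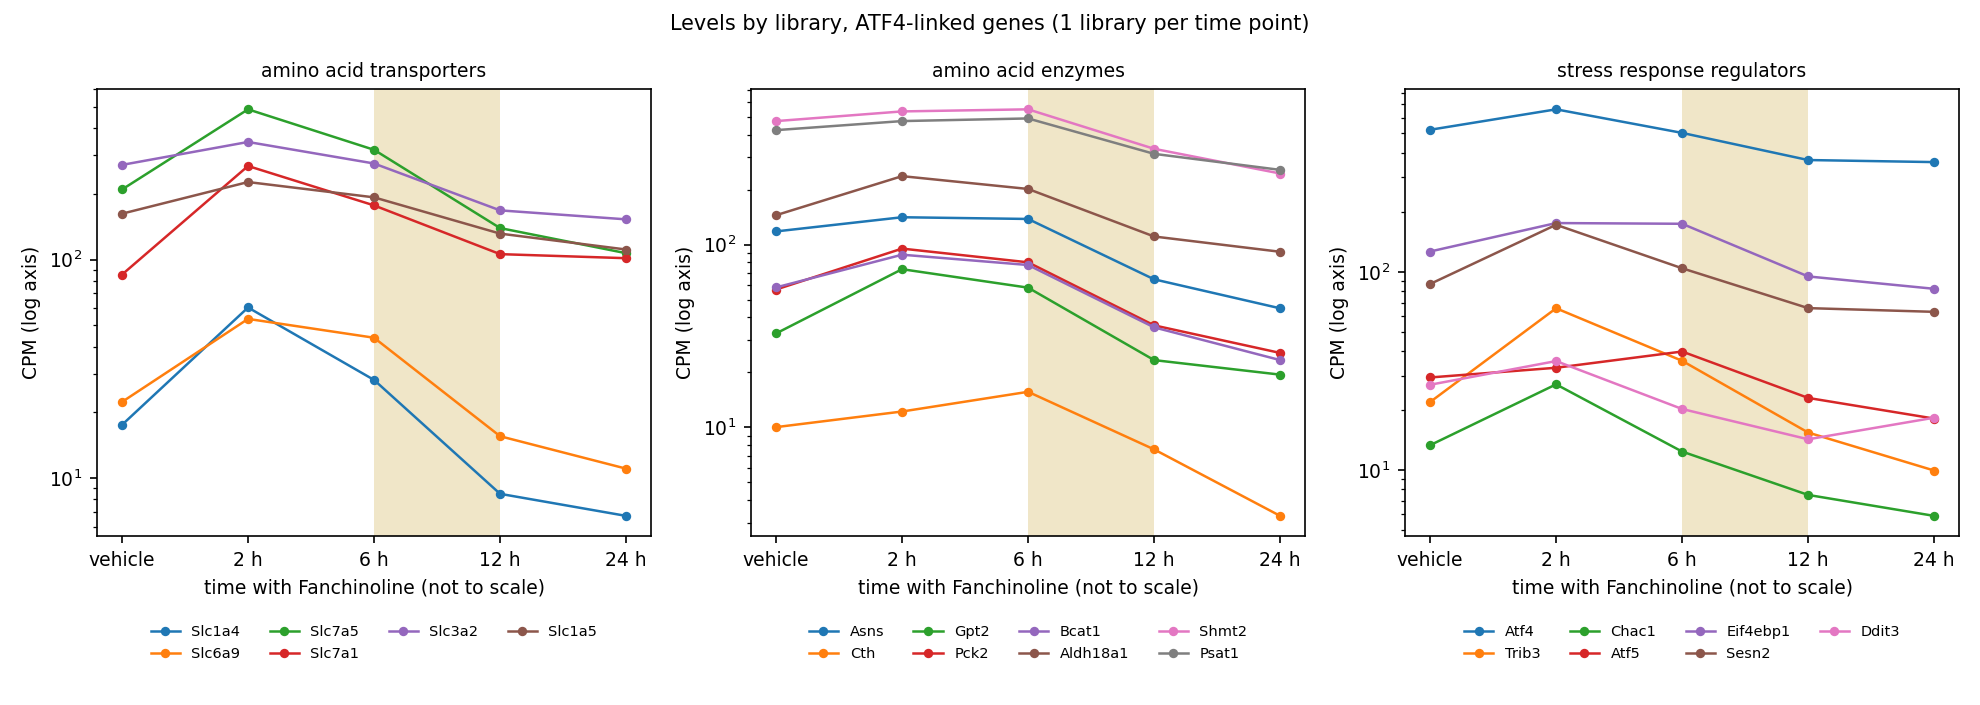
Levels in CPM (log axis) of ATF4-linked genes in the vehicle library and after 2, 6, 12 and 24 h with Fanchinoline, 1 library per point, with the step from 6 h to 12 h shaded. The transporters and regulators that stood highest at 2 h, such as Slc7a5 with 487 CPM, were lower at 12 h and 24 h, with 139 and 107 CPM for Slc7a5.

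Of 19 measured HIF targets outside glycolysis, among 28 listed, 18 had ratios above 0 and 6 were called higher at 12 h than at 6 h, 2 of them at 2-fold. Of these 6, Mgarp, Ak4 and P4ha2 entered the comparison only through the 12 h library. Mgarp (ENSMUSG00000037161, chromosome 3, 51388412 to 51396738, minus strand), a mitochondrial protein that is induced by hypoxia, had 1.19 CPM in vehicle and 1.15, 4.97, 12.3 and 16.0 CPM at 2, 6, 12 and 24 h. Its log2 ratio of 12 h over 6 h was 1.30 (1.07 to 1.55), the highest of all genes compared. Ak4, an adenylate kinase of the mitochondrial matrix, had 0.427 CPM in vehicle and 1.42, 7.09, 14.7 and 18.2 CPM at 2, 6, 12 and 24 h, with a log2 ratio of 1.05 (0.85 to 1.26). Both had levels at 24 h above those at 12 h.

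Bnip3l, a receptor that marks mitochondria for autophagy, had 35.8 CPM in vehicle and 30.4, 65.3, 120.4 and 123 CPM at 2, 6, 12 and 24 h, with a log2 ratio of 0.88 (0.82 to 0.95). P4ha2, a subunit of the collagen prolyl hydroxylase, had 1.19 CPM in vehicle and 1.90, 7.42, 13.5 and 11.3 CPM at 2, 6, 12 and 24 h, with a log2 ratio of 0.86 (0.66 to 1.07). Fam162a, a mitochondrial protein linked to hypoxic cell death, had 67.2 CPM at 12 h and 40.7 CPM at 6 h, a log2 ratio of 0.72. Higd1a, a hypoxia-induced partner of the respiratory chain, had 86.1 CPM at 12 h and 52.6 CPM at 6 h, a log2 ratio of 0.71. Of these 6, only P4ha2 stood lower at 24 h than at 12 h.

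Other members of the list were not called. Bnip3, a relative of Bnip3l in mitochondrial autophagy, had 78.6 CPM at 12 h and 54.8 CPM at 6 h, a log2 ratio of 0.52. Pdk1, the kinase that holds pyruvate out of mitochondrial oxidation, had 142 CPM at 12 h and 105 CPM at 6 h, a log2 ratio of 0.44. Ddit4, an inhibitor of mTORC1 that both hypoxia and ATF4 induce, had 43.1 CPM at 12 h and 39.9 CPM at 6 h, a log2 ratio of 0.11. Outside the list, Tfrc, the transferrin receptor, which is higher when cells lack iron, had a log2 ratio of 0.01. Its level was 85.7 CPM in vehicle and 135, 219, 221 and 241 CPM at 2, 6, 12 and 24 h. It thus already stood above vehicle at 2 and 6 h.

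Of 21 measured genes of glycolysis and lactate export, 17 had ratios above 0 and 2 were called higher. The list median of 0.32 was 0.40 after adjustment for GC content and length, against 0.33 and 0.35 for the HIF list. Pgk1 (ENSMUSG00000062070, chromosome X, 106187100 to 106203699, plus strand), which makes ATP in the payoff phase of glycolysis, had 712 CPM in vehicle and 865, 1274, 2236 and 2270 CPM at 2, 6, 12 and 24 h. The log2 ratio was 0.81 (0.80 to 0.83), which rested on 84363 counts at 12 h and 54109 counts at 6 h. Pgk1 stood among 16 housekeeping genes and was the one of them called. Aldoc, an aldolase, had 123 CPM at 12 h and 73.8 CPM at 6 h, a log2 ratio of 0.74 (0.67 to 0.81).

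Eno1 (0.53), Tpi1 (0.52) and Gapdh (0.50) had log2 ratios close to the rule without reaching it. Slc16a3, which exports lactate, had 589.8 CPM at 12 h and 477 CPM at 6 h, a log2 ratio of 0.31. The enzymes with ratios below 0 were Pfkfb3 (-0.14), Pgm2 (-0.06), Hk2 (-0.04) and Pfkp (-0.02), which were named after their values were seen. None of the 4 was called.

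The windows of genes called higher were searched for ACGTG, the core of the hypoxia response element, on both strands. At least 1 window held it in 11 of 19 genes called higher with a window (57.9%). By gene, the share was 31.1% among the tested genes with a window and 21.8% among all genes with a window. It was 31.2% in genes called lower (15 of 48). By window, the share was 44.4% in genes called higher, 27.1% in tested genes and 19.6% over all windows. In the HIF list 12 of 16 genes with a window held it, and in the glycolysis list 15 of 21. It was also held by 5 of 10 genes of the serine, asparagine, proline and cysteine synthesis list and by 6 of 13 synthetases, whose ratios were below 0. A core this short occurs often, and it is part of the E-box CACGTG as well. Of the 11 genes called higher that held the core, Mgarp, Ak4, P4ha2, Arrdc4 and Mpp2 passed the 10 CPM filter only through the 12 h library. The filter favoured their calls. The windows of Mgarp (chr3:51396518-51396797, minus strand), P4ha2 (chr11:54100674-54100953, plus strand) and Pgk1 (chrX:106186850-106187129, plus strand) are printed because these genes lead the 2 lists or hold more than 1 match. They have the same extent and build as those above, with ACGTG or its reverse complement in capitals.
Mgarp: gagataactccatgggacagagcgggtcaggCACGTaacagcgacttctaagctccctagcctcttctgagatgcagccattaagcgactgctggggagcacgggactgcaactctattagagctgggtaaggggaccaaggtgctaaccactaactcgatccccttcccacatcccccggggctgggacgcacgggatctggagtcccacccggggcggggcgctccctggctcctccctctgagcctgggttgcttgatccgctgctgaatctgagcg
P4ha2: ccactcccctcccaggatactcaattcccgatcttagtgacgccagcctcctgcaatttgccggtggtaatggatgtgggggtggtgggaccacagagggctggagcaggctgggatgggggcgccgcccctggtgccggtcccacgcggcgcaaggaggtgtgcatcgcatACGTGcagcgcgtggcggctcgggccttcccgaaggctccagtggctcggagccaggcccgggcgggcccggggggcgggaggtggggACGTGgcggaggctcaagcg
Pgk1: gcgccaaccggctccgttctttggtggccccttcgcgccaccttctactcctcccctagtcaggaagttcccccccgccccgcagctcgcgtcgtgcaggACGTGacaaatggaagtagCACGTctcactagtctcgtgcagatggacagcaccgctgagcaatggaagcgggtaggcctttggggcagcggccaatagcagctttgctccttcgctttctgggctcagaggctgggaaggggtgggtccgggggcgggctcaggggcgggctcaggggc
P4ha2 and Pgk1 each held 2 matches and Mgarp held 1.

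**Figure D4:**
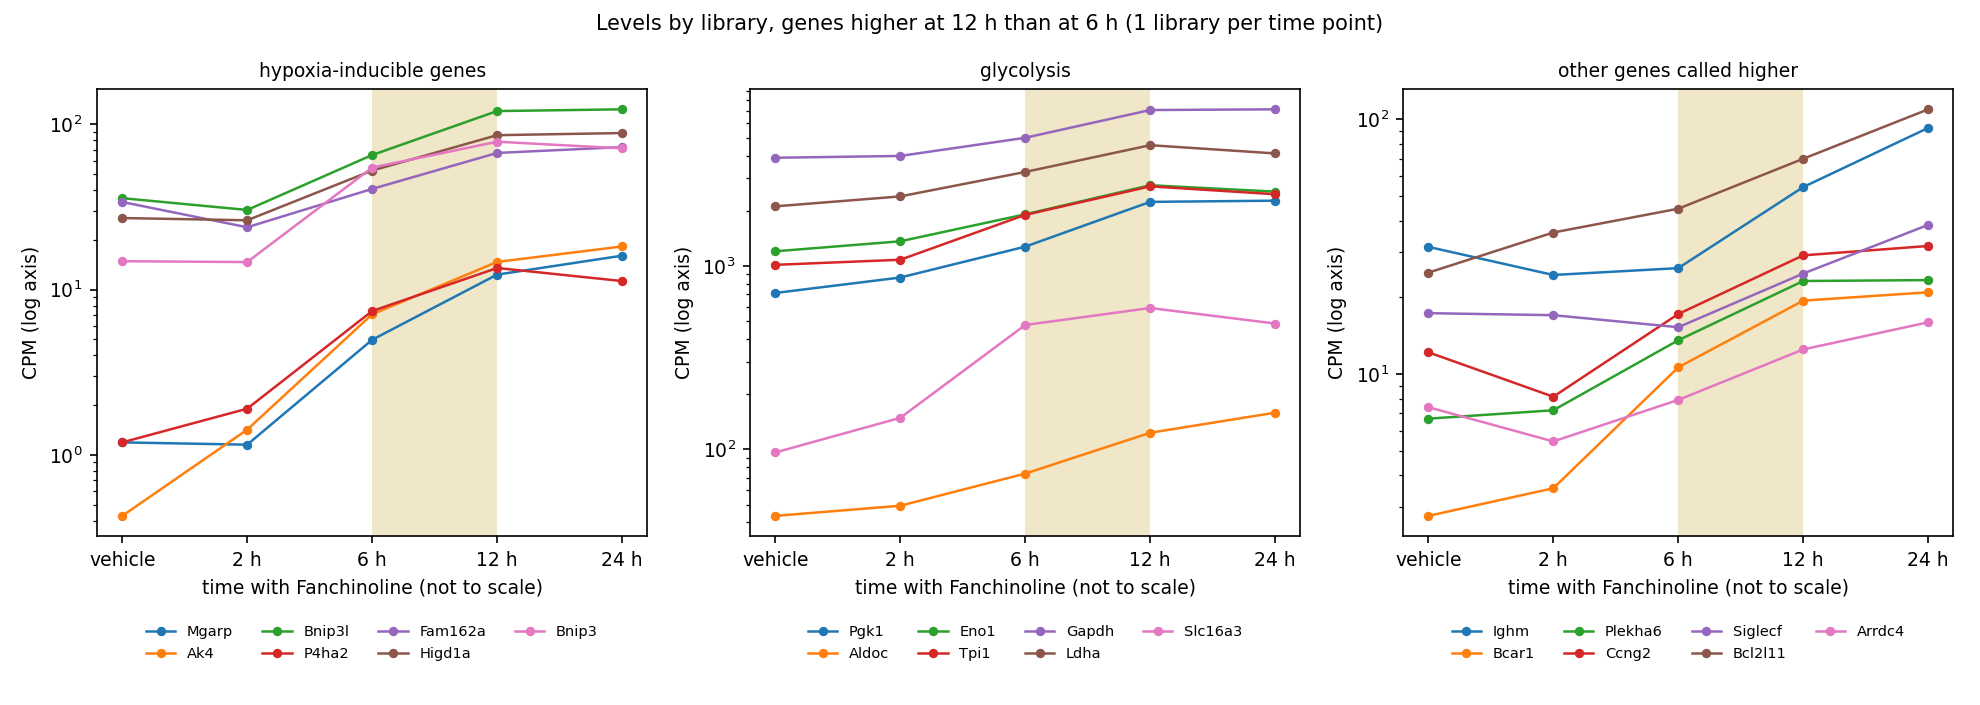
Levels in CPM (log axis) of genes higher at 12 h than at 6 h, in the vehicle library and after 2, 6, 12 and 24 h with Fanchinoline, 1 library per point, with the step from 6 h to 12 h shaded. Bnip3l had similar levels at 12 and 24 h, with 120.4 and 123 CPM, while Ighm and Bcl2l11 were higher again at 24 h, with 92.3 and 109 CPM.

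Of the 29 genes called higher, 21 lay outside the HIF and glycolysis lists. Ighm (ENSMUSG00000076617, chromosome 12, 113418558 to 113422730, minus strand), the constant region of the IgM heavy chain, had 31.5 CPM in vehicle and 24.5, 26.0, 54.1 and 92.3 CPM at 2, 6, 12 and 24 h, with a log2 ratio of 1.05 (0.95 to 1.16). Ighm was the only measured member of a longer list of 11 B cell markers. The 6 defining B cell markers, without Ighm, summed to 0.371 CPM at 12 h and 0.801 CPM at 6 h. Bcl2l11, the pro-apoptotic BIM, had 25.0 CPM in vehicle and 35.9, 44.5, 69.9 and 109 CPM at 2, 6, 12 and 24 h, with a log2 ratio of 0.65 (0.57 to 0.74). It was the only called member of 22 measured genes of the BCL2 family, apoptosome and caspases, whose median was 0.10. The share called higher was 0.337% over all genes tested.

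Bcar1, the adhesion scaffold p130Cas, had 19.4 CPM at 12 h and 10.6 CPM at 6 h, a log2 ratio of 0.87 (0.70 to 1.04). It was the only called gene among 25 of actin and focal adhesion, where 0.337% of all genes tested were called higher. Ccng2, a cyclin associated with cell cycle arrest, had 29.2 CPM at 12 h and 17.2 CPM at 6 h, a log2 ratio of 0.76. Plekha6, a junctional protein with a pleckstrin homology domain, had 23.2 CPM at 12 h and 13.6 CPM at 6 h, a log2 ratio of 0.77. Siglecf, a sialic acid receptor best known on eosinophils, had 24.8 CPM at 12 h and 15.3 CPM at 6 h, a log2 ratio of 0.70. Bcar1, Ccng2 and Plekha6 already stood above their vehicle levels of 2.78, 12.2 and 6.68 CPM at 6 h, and Siglecf, with 17.3 CPM in vehicle, did not.

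Arrestin-fold genes, of which Txnip and Arrdc4 respond to glucose metabolites, differed among themselves. Arrdc4 had 12.5 CPM at 12 h and 7.91 CPM at 6 h and was called higher, with a log2 ratio of 0.65. Txnip, which limits glucose uptake, had 189 CPM at 12 h and 134 CPM at 6 h, a log2 ratio of 0.50 that was not called. Arrdc3 had 9.73 CPM at 12 h and 13.0 CPM at 6 h, a log2 ratio of -0.41.

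Of the 75 genes called lower, 58 lay outside the 4 ATF4-linked lists. Rpl13 (ENSMUSG00000000740, chromosome 8, 123102350 to 123105244, plus strand), a protein of the large ribosomal subunit, had 727 CPM in vehicle and 950.2, 946, 465 and 387 CPM at 2, 6, 12 and 24 h. Its log2 ratio of 12 h over 6 h was -1.02 (-1.05 to -0.998), from 17559 counts at 12 h and 40165 counts at 6 h. The other 78 cytosolic ribosomal protein genes had log2 ratios between -0.39 and 0.15 and a median of -0.01. The exons of Rpl13 overlap small nucleolar RNA genes on the same strand. The main one, Snord68, had 0.0265 CPM at 12 h and 0.0236 CPM at 6 h. The locus summed with them was thus bound to give the same ratio, -1.02, and does not check it.

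H2ax, the histone variant phosphorylated at DNA breaks, had 133 CPM at 12 h and 269.6 CPM at 6 h, a log2 ratio of -1.02 that was -0.85 after adjustment for GC content and transcript length. Phc3, a subunit of Polycomb repressive complex 1, had 5.55 CPM in vehicle and 30.9, 33.8, 12.5 and 14.4 CPM at 2, 6, 12 and 24 h, with a log2 ratio of -1.44 (-1.59 to -1.29). It was above vehicle at 24 h. Ppp1r14a, an inhibitor of myosin phosphatase, had 4.96 CPM at 12 h and 12.1 CPM at 6 h, a log2 ratio of -1.27. Mrps34, of the mitochondrial ribosome, had 15.3 CPM at 12 h and 29.98 CPM at 6 h, a log2 ratio of -0.97.

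Of 18 measured AP-1 and immediate early genes, 3 were called lower, where 0.871% of all genes tested were called lower. Jund, an AP-1 subunit, had 53.9 CPM at 12 h and 104 CPM at 6 h, a log2 ratio of -0.95 (-1.03 to -0.88). Junb (-0.66) and Ier2 (-0.65) were called too, but with GC content and length adjusted their log2 ratios were -0.49 and -0.52, short of the rule, while Jund had -0.77. Fos (0.10) and Jun (-0.17), named after their values were seen, were not called. The quintile of genes with the highest GC content had a median ratio of -0.09 and held 39 of the 75 lower calls, whereas the lowest quintile had a median of 0.07 and held 4. The part of GC content in single ratios was not tested beyond this adjustment, after which 60 of the 75 lower calls and 27 of the 29 higher calls still passed.

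In the nuclear-encoded respiratory chain the 38 measured subunits had a median of 0.02, and the 2 called, both lower, were Cox5b and Cox5a of complex IV. The share called lower was 0.871% over all genes tested. Cox5b had 145 CPM at 12 h and 223 CPM at 6 h, a log2 ratio of -0.63. Cox5a had 58.7 CPM at 12 h and 88.9 CPM at 6 h, a log2 ratio of -0.60, or -0.58 with DESeq2 size factors, which is short of the rule. The 13 mitochondrially encoded messages had ratios above 0 throughout, with a median of 0.28 that was 0.10 after adjustment for GC content and length, and none was called.

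Of 27 measured cDC1 identity genes, 1 was called lower and none higher, where 0.871% of all genes tested were called lower. This was Cd8a, a surface marker of the cDC1 of lymphoid tissue, with 17.5 CPM at 12 h, 26.6 CPM at 6 h and a log2 ratio of -0.60 (-0.75 to -0.47). Zbtb46, a transcription factor that marks conventional dendritic cells, had 39.4 CPM at 12 h and 58.6 CPM at 6 h, a log2 ratio of -0.57 just short of the rule. Flt3, the receptor for the growth factor of dendritic cells, had 13.4 CPM at 12 h and 19.6 CPM at 6 h, a log2 ratio of -0.55, also short of it. Irf8, the transcription factor on which cDC1 depend, had 3663 CPM at 12 h and 4317 CPM at 6 h, a log2 ratio of -0.24, and the chemokine receptor gene Xcr1 had 0.01. Of the 27 genes, 16 had ratios below 0 and 11 had ratios above 0, up to 0.29, and the list median was -0.09.

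Of 10 measured maturation genes, Relb, a subunit of NF-kB, was called lower, where 0.871% of all genes tested were called lower. Relb had 16.0 CPM at 12 h, 24.3 CPM at 6 h and a log2 ratio of -0.60, which became -0.47 after adjustment for GC content and length. MHC class II genes had a median of -0.12 over 12 members; H2-Ab1 had 1153 CPM at 12 h and 1588 CPM at 6 h, a log2 ratio of -0.46, and none was called. MHC class I and the immunoproteasome had a median of -0.12 over 20 members, again with none called. The 7 measured genes of the longer macrophage list had a median of -0.30, with Lyz2 at -0.44 and Csf1r at 0.31 on the log2 scale. The part of such cells or states in the dendritic cell ratios was not tested.

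Cholesterol synthesis genes shifted upward as a list, with no member called. All 20 had ratios above 0, 19 with intervals excluding a ratio of 1, and the median was 0.30. Nsdhl (0.55), Idi1 (0.53) and Acat2 (0.51), enzymes of the pathway, were nearest to the rule. Nsdhl had 165 CPM at 12 h and 113 CPM at 6 h. The sterol-regulated gene Insig1 had a log2 ratio of 0.23, and the median of fatty acid synthesis genes was 0.14 over 11 members.

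Ribosome biogenesis genes shifted the other way. All 30 measured had ratios below 0, 28 with intervals excluding a ratio of 1, and the median was -0.21 with none called. Rrp9, of the small subunit processome, had 38.6 CPM at 12 h and 56.7 CPM at 6 h, a log2 ratio of -0.56, while Myc had -0.13. Translation factors had a median of -0.12 over 25 members, with 22 below 0 and none called. Among 30 mitosis genes 26 had ratios above 0 with a median of 0.17, and among 36 genes of DNA replication and G1/S 30 did with a median of 0.10; none of either list was called.

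Several lists tied to other stress responses stayed near the median of all genes. ER chaperones and genes of the unfolded protein response had a median of -0.03 over 26 members with none called, and Sdf2l1, an ER chaperone cofactor, had the lowest ratio, -0.46. Lysosomal genes had a median of 0.01 over 35 members, autophagy genes 0.08 over 27 and p53 with its targets 0.04 over 11, each with none called. Cdkn1a, the cell cycle inhibitor p21, had 34.0 CPM at 12 h and 27.3 CPM at 6 h, a log2 ratio of 0.32. Heat shock chaperones lay further from the median of all genes, at -0.14 over 17 members, with 12 below 0. The 19 interferon-stimulated genes measured had a median of 0.13, with 14 above 0. No member of these last lists was called.

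Some calls lay in genes that share exons with a neighbour on the same strand. Such overlap affected 17 of the 104 called genes (20.7% of the higher and 14.7% of the lower calls), against 9.33% of all genes tested. Summed with its overlapping partners, the locus passed 1.5-fold for 3 of the 17, which were Rpl13, Mrps34 and Ipo4, and not for the other 14. In these 3 the main partner was far below the gene, so the sum nearly repeats the gene's own ratio and does not check it. At 6 h, Nme3 had 0.400 CPM beside 29.98 CPM for Mrps34, and Gm49378 had 2.50 CPM beside 54.2 CPM for Ipo4. Where the partner far exceeded the gene, the sum could hardly pass and says little about the gene. At 6 h, for example, Rab43 had 741 CPM beside 6.69 CPM for Gm45140. Ifi203 (0.62) and its partner Mndal (0.51) both had log2 ratios above 0, and their locus had 0.54. Cpne1, a calcium-dependent membrane-binding protein, had 59.7 CPM at 12 h and 29.0 CPM at 6 h, a log2 ratio of 1.04. Its overlapping gene Gm28036 had 48.7 CPM at 12 h and 83.8 CPM at 6 h, a log2 ratio of -0.78. The summed locus had 137 CPM at 12 h and 136 CPM at 6 h, a log2 ratio of 0.02.

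The lowest ratio of all, -2.07, was that of Gm43738, with 12.1 CPM at 12 h and 51.0 CPM at 6 h. It shares exons with Fdps, an enzyme of cholesterol synthesis with 1294 CPM at 12 h and 984 CPM at 6 h, and their summed locus had a log2 ratio of 0.31. The sources used here do not give how reads that fit several genes were counted, so these gene-level ratios are uncertain. Gm28036, Gm43738 and Ipo4 were named after their values were seen.

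The libraries at 24 h and 2 h were not used for these calls, and their ratio gave a separate set of values for the same genes. Over the 8608 genes the median log2 ratio of 24 h over 2 h was -0.03; 315 genes (3.66%) were higher and 306 (3.55%) were lower by the 1.5-fold rule. Of the 29 genes called higher at 12 h over 6 h, 22 (75.9%) were also higher at 24 h over 2 h and 1 was lower, with a median of 1.39. Of the 75 called lower, 64 (85.3%) were also lower and 2 were higher, with a median of -0.95. Mgarp had a log2 ratio of 3.74 at 24 h over 2 h, and Slc1a4 had -3.16.

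The ATF4-linked lists together had 33 of 54 members lower and none higher at 24 h over 2 h, with a median of -0.73. The HIF and glycolysis lists had 25 of 40 higher and none lower, with a median of 0.85. The 3 genes called in opposite directions, Gm45140, Gm21982 and Gm43738, all share exons with a neighbour on the same strand and were named after their values were seen. Gm21982 had 66.6 CPM in vehicle and 3.27, 66.1, 30.7 and 60.9 CPM at 2, 6, 12 and 24 h. All 4 libraries come from 1 time course, so agreement between the 2 ratios is not replication of either.

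**Figure D5:**
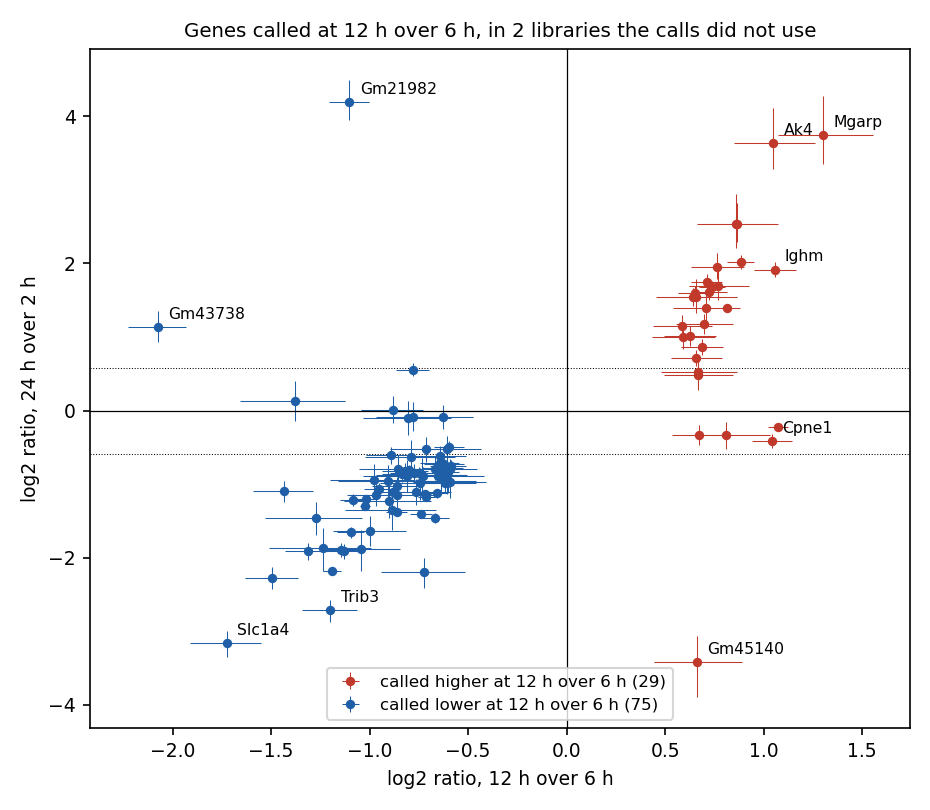
Log2 ratio of 24 h over 2 h (vertical axis) against log2 ratio of 12 h over 6 h (horizontal axis) for the 104 genes called at 1.5-fold, with bars for the 95% counting intervals. Red points are the 29 genes called higher and blue points the 75 called lower at 12 h over 6 h; dotted lines mark 1.5-fold. Most points lie in the lower left and upper right, and Gm21982, Gm43738 and Gm45140 are the ones past 1.5-fold in opposite directions.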

How the data were processed

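RNA-seq was measured in 5 libraries of MutuDC cells. Per the labels' protocols, poly-A RNA was selected from TRIzol extracts, and TruSeq libraries were made from it. The authors deposited raw counts per gene, 53700 genes by 1 column per time point; 0 genes lacked a name and 0 columns went unused. Per the submitters' processing notes, Trim Galore, HISAT2 and GRCm38 were used. The sources used here give no versions, counting program or strand handling.

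Counts were scaled by TMM factors over all 5 libraries (0.977 to 1.05; edgeR 4.0.16, R 4.3.3) and log2 CPM were computed with a prior count of 2. The CPM filter and the CPM printed use the same scaling. Ratios carry 95% exact Clopper-Pearson intervals of the 2 scaled counts (scipy 1.17.1), which take reads as independent and cover counting error only. PCR copies are not independent molecules, so the intervals can be too narrow even for counting error. A count of 0 allows up to 3 counts, 0.070 to 0.092 CPM. Genes were called at 1.5-fold, and also at 2-fold; there was no test across samples. Ratios were also adjusted for GC content and transcript length with robust splines (5 degrees of freedom each, statsmodels 0.14.6), using GENCODE's GRCm38 annotation, in which 99.9% of the genes compared were found. DESeq2 1.42.0 gave alternative size factors. The procedure was checked on simulated counts.

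The members, the 51 gene lists and the rule for named genes were chosen with earlier results of these data known. Named were the 15 highest and 15 lowest called genes with ordinary symbols, 20 genes by name, and from each list no more than the 4 members furthest from 0; not all of them are reported here. Genes named outside this rule, mostly further list members, were chosen after their values were seen.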

Additional observations from a re-analysis of the deposited data

How the results depend on the processing

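The number of genes called depended on the filter on low counts and little on scaling. With genes of 1 CPM or more in either library, 477 genes were called at 1.5-fold (191 higher and 286 lower), and 115 at 2-fold (43 higher and 72 lower). With no filter, 1063 were called at 1.5-fold (466 higher and 597 lower), and 657 at 2-fold (301 higher and 356 lower). The 1 CPM filter also gave 1320 genes called at 24 h over 2 h, against 621. Without genes that overlap another on the same strand, 3 rather than 5 genes were higher at 2-fold. These counts differ by construction, since more or fewer genes entered. DESeq2 size factors gave 102 calls at 1.5-fold, total counts alone 104, a prior count of 0.5 gave 105 and the adjustment for GC content and length 95, against 104. None of the 206 genes taken by the naming rule changed sign of a call under these 4 alternatives, but Cox5a lost its call with DESeq2 size factors (-0.58), and with GC content and length adjusted Ier2 (-0.52), Junb (-0.49), Relb (-0.47) and Sesn2 (-0.57) lost theirs while Kdm7a (-0.61) and Mpc2 (-0.61) gained one. No replicate could be left out, because each time point had 1 library. No paired analysis was possible because the groups compared hold 1 library each.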

Other observations

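Further genes called at 12 h over 6 h, outside the lists described and chosen after their values were seen, included regulators of myeloid cells and of RNA processing. Cebpd, a C/EBP transcription factor of myeloid cells, had 9.01 CPM at 12 h and 16.4 CPM at 6 h, a log2 ratio of -0.86 (-1.05 to -0.67), and passed the 10 CPM filter only through the 6 h library. Nr2f6, an orphan nuclear receptor, had 21.3 CPM at 12 h and 38.9 CPM at 6 h, a log2 ratio of -0.86 (-0.99 to -0.74), and Pim3, a serine/threonine kinase, had a ratio of -0.61 that was -0.49 after adjustment for GC content and length. Exosc3, a subunit of the RNA exosome, had 20.7 CPM at 12 h and 38.5 CPM at 6 h, a log2 ratio of -0.89 (-1.02 to -0.77). Snrpf, a core spliceosomal protein, had 32.3 CPM at 12 h and 57.8 CPM at 6 h, a log2 ratio of -0.84 (-0.94 to -0.74). All 5 had ratios below 0 at 24 h over 2 h as well, between -1.02 for Nr2f6 and -0.61 for Exosc3.

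Genes of the same kind called higher included receptors of the cell surface. Cd244a, a receptor of the SLAM family, had 44.5 CPM at 12 h and 28.6 CPM at 6 h, a log2 ratio of 0.64 (0.53 to 0.75), and a ratio of 1.54 at 24 h over 2 h. Hepacam2, an immunoglobulin-like adhesion protein, had 44.9 CPM at 12 h and 27.9 CPM at 6 h, a log2 ratio of 0.69 (0.58 to 0.80), and 0.86 at 24 h over 2 h. Trp53inp2, which takes part in autophagosome formation, had 22.7 CPM at 12 h and 15.1 CPM at 6 h, a log2 ratio of 0.59 (0.44 to 0.74), and 1.15 at 24 h over 2 h.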
